A study of Homo sapiens with 12 samples.

Results

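Mitochondrial fatty acid oxidation was followed through 10 enzyme genes: CPT1A, CPT1C, CPT2, ACADVL, ACADM, ACADS, HADHA, HADHB, HADH and ECHS1. They were found by matching the Ensembl identifiers of the count table, without their version, to gene symbols, and each of the 10 matched 1 of the 70116 rows. All 10 were among the 16197 genes that passed the filter on low counts. The RNA came from MiaPaCa-2, an established human pancreatic cancer line, transfected with a control siRNA (siControl) or with siRNA against SLC25A1 (siSLC25A1), ACLY (siACLY) or ACO1 (siACO1), with 3 libraries in each of the 4 groups. SLC25A1 is the mitochondrial citrate carrier, ACLY cleaves cytosolic citrate to acetyl-CoA, and ACO1 is the cytosolic aconitase. All groups share the transfection and the cell line; the labels give no siRNA sequences, no time after transfection and no medium beyond the supplier's recommendation, and they do not say whether the replicates were separate cultures, so p-values measure the spread between these libraries, which may be technical.

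Fatty acid oxidation breaks acyl-CoA down to acetyl-CoA inside mitochondria. Long-chain acyl groups enter through the carnitine shuttle, in which the CPT1 step is inhibited by malonyl-CoA, a product of the acetyl-CoA that ACLY supplies. In the matrix each turn of the cycle runs through a dehydrogenase, a hydratase, a hydroxyacyl dehydrogenase and a thiolase, with different enzymes for long, medium and short chains.

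Library totals ran from 24159424 to 43792811 counts. SLC25A1, ACLY and ACO1 were at 8.78%, 7.25% and 3.75% of their siControl level in the groups in which they were targeted. The epithelial keratins KRT8 and KRT18 were at 2278 and 1325 CPM (counts scaled to library size with TMM factors) in siControl and VIM at 3561, while EPCAM had at most 2 counts in a library. The acinar, endocrine and leukocyte markers examined (PRSS1, CPA1, CELA3A, INS, GCG, CHGA, PTPRC and CD3E) were listed at 0 in every library, and the endothelial (PECAM1, CDH5), liver (ALB) and muscle (CKM) markers had at most 7 counts. Of the 3 fibroblast markers COL1A2 was at 885 CPM while COL1A1 and DCN had at most 9 counts. In siACO1 KRT8, KRT18 and KRT19 were at 1280, 774 and 52.0 CPM (KRT19 was at 88.5 CPM in siControl) and COL1A2 at 1576 CPM. None of these overlapped with the controls. VIM was at 3472, 3540 and 3841 CPM in siACO1 and overlapped with the controls, at 3526, 3653 and 3504. The other knockdowns shifted as well, without overlap in the values given next. In siSLC25A1 KRT8 and KRT18 were at 2011 and 1151 CPM, KRT19 at 121, VIM at 3843 and COL1A2 at 807. In siACLY KRT8 was at 2414, KRT19 at 141 and VIM at 4558. The part of these shifts in the results below was not tested. A single library stood apart by the chi-square of the counts. With its 2 fellow replicates siACO1 replicate 3 had 11.8 and 12.5 for each degree of freedom, against 2.31 to 5.85 for all other pairs of replicates. By Pearson correlation of log2 CPM it did not stand apart (0.989 and 0.990, against 0.988 to 0.993 for the other pairs). Its median absolute deviation from the other 2 on the log2 scale was 0.15 over all tested genes and 0.10 over the 10 enzymes. Where an enzyme, another named gene or a list in siACO1 changed its call or count without this library, the value without it is given. This was not examined for the markers, the 3 targets, ACAD9, ACAD10, ACAD11 and ACADSB.

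Levels can be compared between genes only per length, and the length used mattered. With the merged exons of GENCODE release 29 as length, ECHS1 had the highest siControl level of the 10, at 158 ± 3.12 CPM per kb (SD, n = 3), followed by HADHA at 77.5 ± 0.793, ACADVL at 70.0 ± 3.08 and HADHB at 35.8 ± 0.793. CPT1A (12.9 ± 0.581) and ACADM (12.2 ± 0.434) did not differ beyond their spread, nor did HADH (4.62 ± 0.134) and ACADS (4.58 ± 0.247). CPT2 was at 2.08 ± 0.0860 and CPT1C was lowest, at 0.435 ± 0.0461 CPM per kb. With the length of the principal transcript, a choice added after the data had been seen, ECHS1 stayed at 158 and CPT1C remained lowest at 0.876, while HADH, whose merged exons hold 12086 bases against 1912 in its principal transcript, came to 29.2 ± 0.847 CPM per kb, above ACADM (22.2) and CPT1A (16.2). ACADVL, at 147 ± 6.45, then lay above HADHA at 112 ± 1.15.

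**Figure D1:**
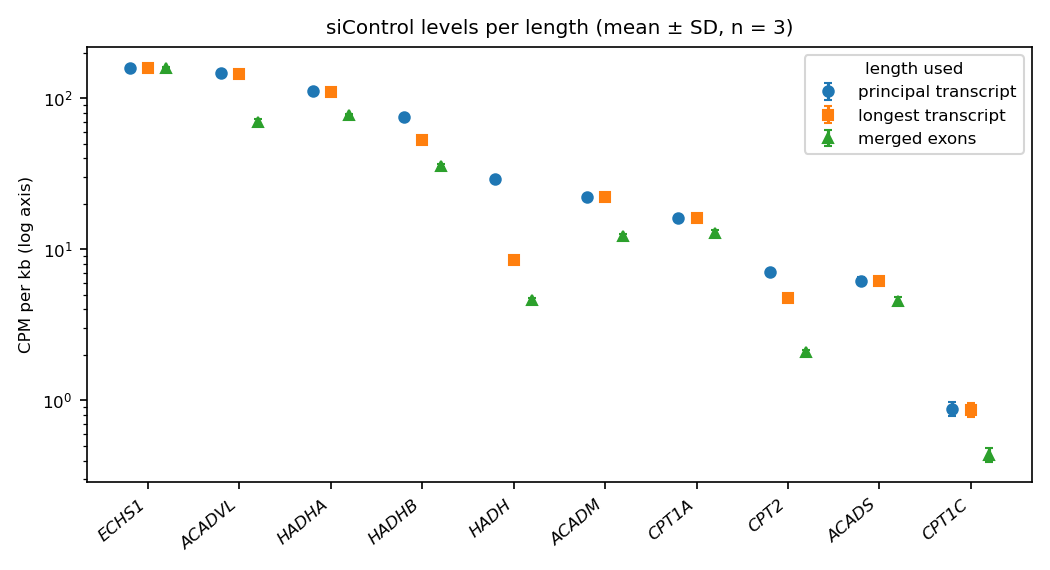
Level of each enzyme transcript in siControl in CPM per kb (log axis), as mean ± SD of 3 libraries, with 3 choices of gene length. ECHS1 is highest and CPT1C lowest under each choice, and HADH moves most, from 4.62 to 29.2.

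The siACO1 group had the most called enzymes, in both directions: 5 rose, 2 fell and 3 did not pass the test, beside 37.1% of all tested genes called in that comparison (17.8% higher, 19.3% lower). In siACLY 2 rose and 3 fell, where 36.7% of all genes were called (18.4% higher, 18.3% lower). In siSLC25A1 1 rose and 2 fell, where 19.6% were called (10.3% higher, 9.27% lower). A call is an adjusted p under 0.05 in edgeR's quasi-likelihood test with Benjamini-Hochberg adjustment over the 16197 genes, and the adjusted p-values below are from that fit. The share of enzymes called in siSLC25A1 and siACLY is not far from that of all genes, and 10 genes carry no test of the share in siACO1. The largest change of any of the 10 was the rise of CPT1C in siACO1 to 175% of control; the median log2 fold change of the 10 was -0.06 in siSLC25A1, -0.06 in siACLY and 0.06 in siACO1, against -0.00, 0.01 and 0.01 over all tested genes. The 3 comparisons share the siControl libraries. In RNA from a whole culture, fewer cells with a transcript and less of it per cell cannot be told apart.

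**Figure D2:**
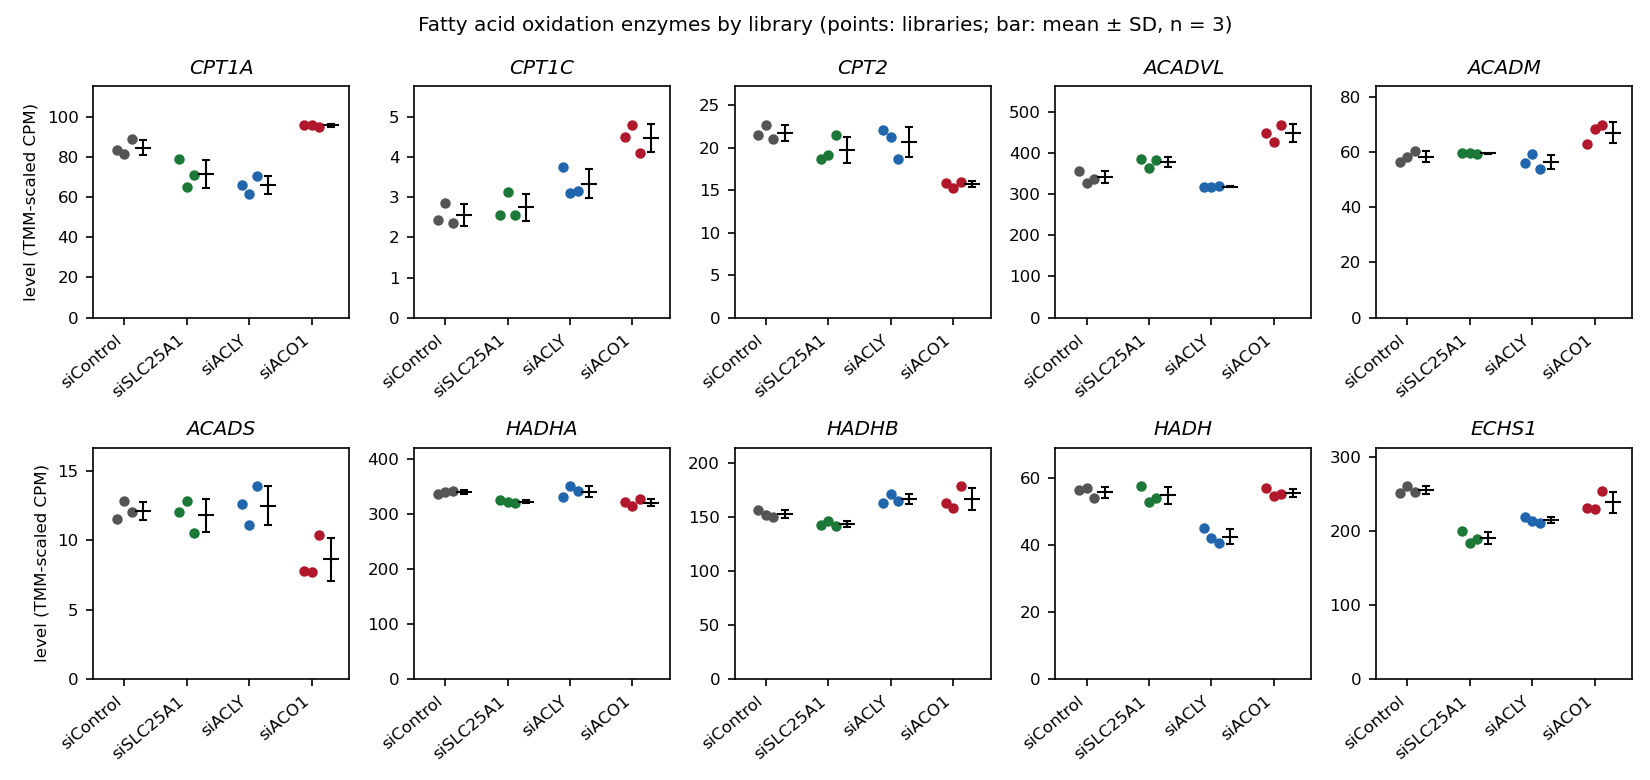
Level of each of the 10 enzyme transcripts in TMM-scaled CPM (vertical axes from 0, 1 scale per gene) in the 12 libraries, with mean ± SD of each group of 3. CPT1A sits below siControl in siSLC25A1 and siACLY and above it in siACO1, and CPT2 and ACADS are low in siACO1 alone.

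The carnitine shuttle enzymes did not move together. CPT1A (ENSG00000110090.13; chromosome 11, 68754620 to 68844410, minus strand), the outer-membrane enzyme that hands long-chain acyl groups to carnitine, was at 83.3, 81.4 and 88.8 CPM in siControl and at 95.9, 96.0 and 95.0 CPM in siACO1. It was at 78.9, 65.1 and 70.9 CPM in siSLC25A1 and at 66.2, 61.6 and 70.2 CPM in siACLY. Every library of these 2 groups lay below every control, and every siACO1 library lay above. CPT1A thus fell in siSLC25A1 (log2 fold change -0.24, SE 0.06, adjusted p 0.00339) and in siACLY (-0.36, SE 0.06, adjusted p 1.32e-05), and rose in siACO1 (0.18, SE 0.06, adjusted p 0.0122). The rise in siACO1 was small, and its call was lost without siControl replicate 1 or siControl replicate 2, with an adjusted p of up to 0.0758 and log2 fold changes between 0.15 and 0.23 over all alternatives.

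CPT2 (ENSG00000157184.7; chromosome 1, 53196429 to 53214197, plus strand), the inner-membrane enzyme that returns the acyl group to CoA, went the other way in siACO1. Its siControl libraries held 21.5, 22.7 and 21 CPM and its siACO1 libraries 15.8, 15.3 and 16.0 CPM, with no overlap. This was a fall to 72.1% of control, or -0.47 on the log2 scale (SE 0.08, adjusted p 1.29e-05). In siSLC25A1 (18.6, 19.1 and 21.5 CPM) and siACLY (22.1, 21.2 and 18.7 CPM) the groups overlapped with the controls, and the 95% intervals of the log2 fold change were -0.30 to 0.01 and -0.22 to 0.08. In GENCODE release 29, 12% of the exon bases of CPT2 overlap other genes, so part of its count could be shared with them.

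CPT1C (ENSG00000169169.15; chromosome 19, 49690898 to 49713731, plus strand), the isoform known from neurons, where it sits in the endoplasmic reticulum and has little acyltransferase activity, was the scarcest of the 10, with 62 to 167 counts per library. It was at 2.43, 2.86 and 2.36 CPM in siControl and at 4.51, 4.81 and 4.11 CPM in siACO1, where it rose by 0.81 on the log2 scale (SE 0.15, adjusted p 0.000111). In siACLY it was at 3.75, 3.10 and 3.16 CPM, above every control (log2 fold change 0.40, SE 0.16, adjusted p 0.0464). That call was lost in 7 of 13 alternatives, among them siControl replicate 1, siControl replicate 3 and each siACLY library left out, with log2 fold changes from 0.29 to 0.49. In siSLC25A1 (2.55, 3.14 and 2.57 CPM) it overlapped with the controls, with an interval of -0.24 to 0.44.

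CPT1C had the largest rise of the 10 in siACO1. The largest fall was that of ACADS, the short-chain dehydrogenase described next (log2 fold change -0.49, SE 0.11). The fall of CPT2 (-0.47, SE 0.08) did not differ from it beyond these errors. The bases before the starts of CPT1C and ACADS are shown. The stretches are the parts of the RefSeq promoter windows (GRCh38.p14, 250 bases before the start) that hold no exon of GENCODE release 29, written 5′ to 3′ on the plus strand, with GC boxes (GGGCGG) and CCAAT boxes (CCAAT, here as its reverse complement) in capitals. The CPT1C stretch is chr19:49690998-49691109 and the ACADS stretch is chr12:120725576-120725734. CPT1C has 3 RefSeq windows, and the stretch shown is from window 2, whose start is that of the principal transcript. The exon-free stretches of windows 1 and 3, of 250 and 155 bases, hold none of the motifs searched and are not shown.
CPT1C: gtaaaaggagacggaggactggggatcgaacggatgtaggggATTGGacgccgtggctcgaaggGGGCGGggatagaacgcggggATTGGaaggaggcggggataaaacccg
ACADS: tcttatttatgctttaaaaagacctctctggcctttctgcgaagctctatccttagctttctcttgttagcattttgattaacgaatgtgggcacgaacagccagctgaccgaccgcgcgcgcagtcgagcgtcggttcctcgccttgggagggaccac
The CPT1C stretch holds 1 GC box between 2 reversed CCAAT boxes, and the ACADS stretch holds neither, its 2 GC boxes lying nearer to the start (83 and 12 bases before it) in bases that GENCODE counts as exon. RefSeq windows of all 10 genes were matched, 14 in all. On either strand, GC boxes occurred in 10 of these 14 windows (every gene but CPT1A) and in 45% of 35116 windows of the same length (300 bases, 50 of them after the start); the windows of HADHA and HADHB share bases, and 1 box there is counted in both. The 10 windows with a GC box had 60% to 79.6% G and C in the 250 bases before the start. Those without had 40.4% to 56.4%, and the median over all 35116 windows was 58%. The part of base composition in the share of GC boxes was not tested. CCAAT boxes occurred in 2 of the 14 (CPT1C and HADH) and in 34.6% of all windows. CCGGAAGT, an ETS site, was found for CPT2 alone (4.14% of all windows). CACGTG (7.26% of all windows), CGCATGCG (2.02%), TNAAGGTCA (0.951%) and AGGTCANAGGTCA (0.0228%), the letters of the E box, of the NRF1 core, of the estrogen-related receptor element and of the direct repeat bound by PPARs, which does not itself hold TNAAGGTCA, were in none of the windows of the 10 genes. Not every window lies at the start of the principal transcript. The RefSeq start is 2361 bases from it for CPT1A, 2681 for window 1 of ACADVL and 14827 for window 2 of HADH. The windows of CPT2, ACADM and ECHS1 lie wholly after that start (RefSeq starts 395, 358 and 335 bases from it). For these genes the motifs found or missing, the ETS site of CPT2 among them, do not describe the bases before the principal start.

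The acyl-CoA dehydrogenases open the cycle, and in siACO1 the 3 among the 10 enzymes did not move together. From the list of other mitochondrial genes described below, ACAD9, ACAD10, ACAD11 and ACADSB did not pass the test there. Their log2 fold changes were -0.03, -0.06, 0.12 and 0.09. Of the exon bases of ACAD11 83.8% overlap other genes, so its count is uncertain. ACADVL (ENSG00000072778.20; chromosome 17, 7217125 to 7225273, plus strand), which takes very long chains, was at 357, 327 and 338 CPM in siControl and at 448, 426 and 469 CPM in siACO1, a rise to 132% of control, or 0.40 on the log2 scale (SE 0.04, adjusted p 1.19e-08). ACADM (ENSG00000117054.15; chromosome 1, 75724347 to 75787575, plus strand), for medium chains, rose from 56.4, 58.0 and 60.5 CPM to 62.7, 68.3 and 69.9 CPM (0.20, SE 0.05, adjusted p 0.00214). ACADS (ENSG00000122971.9; chromosome 12, 120725735 to 120740008, plus strand), for short chains, fell from 11.5, 12.8 and 12.0 CPM to 7.77, 7.70 and 10.4 CPM (-0.49, SE 0.11, adjusted p 0.000852). None of the 3 overlapped with the controls. The third siACO1 library was the highest for ACADS, 0.43 above the other 2 on the log2 scale, and over all alternatives, that library left out among them, the log2 fold change ran from -0.65 to -0.41 with adjusted p-values of at most 0.00974.

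Each of the 3 genes differed between siACO1 and the other knockdowns. As siSLC25A1 minus siACO1 the log2 differences were -0.25 for ACADVL, -0.17 for ACADM and 0.44 for ACADS (adjusted p 2.12e-05, 0.00901 and 0.00218), and as siACLY minus siACO1 they were -0.49, -0.25 and 0.53 (adjusted p 1.19e-10, 0.000212 and 0.000262). Against siControl, ACADVL rose in siSLC25A1 (385, 364 and 383 CPM; log2 fold change 0.15, SE 0.04, adjusted p 0.0115), a call lost without siControl replicate 2, siControl replicate 3 or siSLC25A1 replicate 3, where the adjusted p was up to 0.0937. In siACLY it was at 318, 318 and 320 CPM, below every control, without passing the test (-0.10, adjusted p 0.0737). That value passed the test without siControl replicate 2 and in a fit of the 2 groups alone, with adjusted p-values down to 0.00969. ACADM and ACADS did not pass the test in either group, with intervals of -0.07 to 0.14 and -0.26 to 0.18 in siSLC25A1 and of -0.15 to 0.06 and -0.17 to 0.26 in siACLY.

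HADHA and HADHB encode the alpha and beta subunits of the trifunctional protein, which carries out the remaining steps for long chains, and they are transcribed head to head on chromosome 2 (HADHA, ENSG00000084754.12, 26190635 to 26244726, minus strand; HADHB, ENSG00000138029.14, 26243170 to 26290468, plus strand). Their RefSeq starts are 307 bases apart and their promoter windows share 194 bases. Between the 2 starts the longest stretch free of annotated exons, chr2:26244727-26244747, is short, and is shown on the plus strand to show how close the 2 genes lie; it holds none of the motifs searched.
HADHA-HADHB: ccggccccttagccctgcccc
Of the 2 transcripts HADHB passed the test in siACLY and siACO1, and HADHA in no comparison with siControl. HADHB was at 157, 152 and 150 CPM in siControl, at 163, 172 and 165 CPM in siACLY and at 163, 159 and 179 CPM in siACO1. It was above the controls in all 6 libraries, by 0.12 in siACLY (SE 0.04, adjusted p 0.0288) and 0.13 in siACO1 (SE 0.04, adjusted p 0.0237) on the log2 scale. Both calls were fragile: the first was lost in 6 of 13 alternatives (without siControl replicate 2 or 3 or siACLY replicate 2 or 3 among them, 0.09 to 0.17) and the other in 5 of 13 (without siControl replicate 2 or 3 or siACO1 replicate 3 among them, 0.07 to 0.17, the lowest without siACO1 replicate 3).

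HADHA was at 336, 340 and 343 CPM in siControl and at 332, 351 and 342 CPM in siACLY, where the interval of its log2 fold change was -0.07 to 0.08. In siACO1 it was at 322, 314 and 328 CPM, below every control, and did not pass the test (-0.08, adjusted p 0.0895), although it did without siACO1 replicate 3 (-0.10, adjusted p 0.0214) and in DESeq2 (-0.09). Between siACLY and siACO1 HADHA differed by 0.09 (adjusted p 0.0595), and by 0.10 without siACO1 replicate 3 (adjusted p 0.0185). In siSLC25A1 both subunits lay below every control library, HADHA at 325, 323 and 320 CPM and HADHB at 143, 147 and 142 CPM, and neither passed the test (adjusted p 0.172 and 0.166). Of the 10 enzymes 5 had non-overlapping groups in siSLC25A1 (37.1% of all tested genes), 6 in siACLY (50.5%) and 8 in siACO1 (46.3%). Other genes, the pseudogene HADHAP2 foremost, contain 15.9% of the 31-base stretches found in HADHA transcripts, so part of its reads could have been assigned elsewhere.

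The 2 subunit transcripts were also set against each other within each library. For every 100 CPM of HADHA there were 46.7, 44.7 and 43.8 CPM of HADHB in siControl, 44.0, 45.5 and 44.4 in siSLC25A1, 49.2, 49.1 and 48.1 in siACLY and 50.8, 50.6 and 54.5 in siACO1. In siACLY and siACO1 all libraries lay above the controls, by 0.12 and 0.21 on the log2 scale. For every 100 CPM of CPT1A there were 25.8 ± 2.14 CPM of CPT2 in siControl and 16.4 ± 0.459 (SD, n = 3) in siACO1, without overlap. For every 100 CPM of ACADVL there were 3.57 ± 0.345 CPM of ACADS in siControl and 1.92 ± 0.261 in siACO1, also without overlap. These were log2 differences of -0.65 and -0.90. These ratios were chosen after the values were seen. With 3 libraries against 3, the exact two-sided permutation test cannot go below 0.100, the value reached by these 4 differences, and adjusted over the 9 ratio comparisons it was 0.225.

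**Figure D3:**
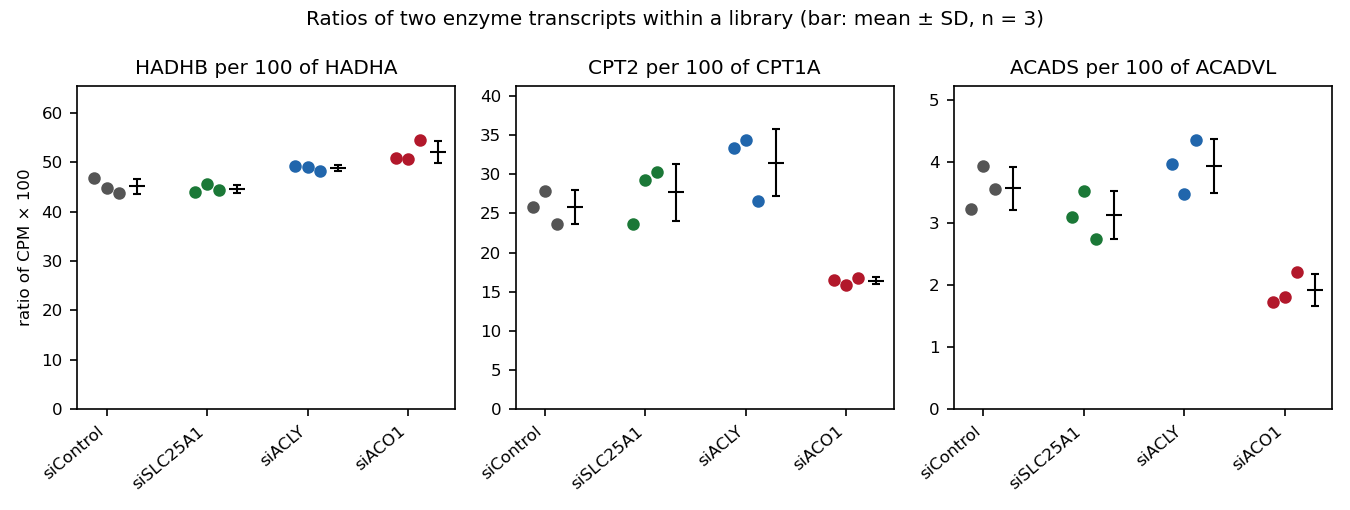
Ratio of 2 enzyme transcripts within each library (CPM of the first per 100 CPM of the other, axes from 0), with mean ± SD of each group of 3. CPT2 to CPT1A and ACADS to ACADVL are lowest in siACO1 (16.4 and 1.92), and HADHB to HADHA is highest there (52.0).

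The 2 remaining enzymes act on shorter chains, HADH as hydroxyacyl-CoA dehydrogenase and ECHS1 as enoyl-CoA hydratase, which also serves valine breakdown. HADH (ENSG00000138796.18; chromosome 4, 107989714 to 108035175, plus strand) fell in siACLY alone, from 56.5, 57.1 and 54.0 CPM in siControl to 45.0, 42.2 and 40.5 CPM (log2 fold change -0.39, SE 0.05, adjusted p 8.25e-07). In siSLC25A1 (57.6, 52.8 and 54.1 CPM) and siACO1 (56.9, 54.7 and 55.3 CPM) it overlapped with the controls, with intervals of -0.13 to 0.08 and -0.11 to 0.10. HADH differed between siACLY and each of the other knockdowns, by -0.38 against siACO1 (adjusted p 7.87e-07) and, as siSLC25A1 minus siACLY, by 0.36 (adjusted p 3.81e-06).

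ECHS1 (ENSG00000127884.5; chromosome 10, 133362480 to 133373689, minus strand) had the largest fall of the 10 in siSLC25A1. It was at 252, 261 and 253 CPM in siControl, at 200, 184 and 190 CPM in siSLC25A1 and at 219, 214 and 211 CPM in siACLY. These were falls to 74.8% of control (-0.42 on the log2 scale, SE 0.04, adjusted p 2.61e-08) and to 84.2% (-0.25, SE 0.04, adjusted p 3.76e-05), and the 2 knockdowns differed from each other by -0.17 (adjusted p 0.00300). In siACO1 it was at 232, 230 and 255 CPM, with the third library inside the control range. It did not pass the test there (-0.10, adjusted p 0.0843), but did without siACO1 replicate 3 (-0.15, adjusted p 0.00166).

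**Figure D4:**
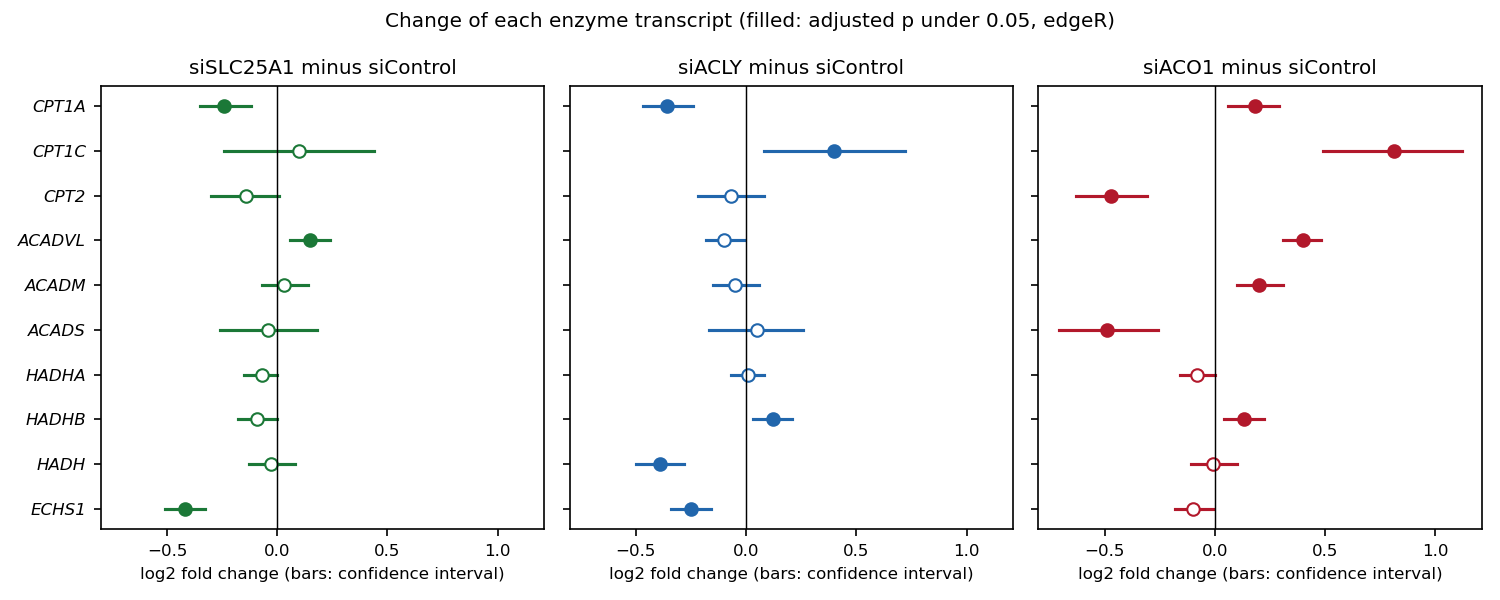
Log2 fold change of the 10 enzymes in each knockdown against siControl with its 95% interval; filled points have an adjusted p under 0.05 in edgeR. ECHS1 (-0.42) is the lowest point in siSLC25A1, HADH (-0.39) in siACLY and ACADS (-0.49) in siACO1, and CPT1C (0.81) is the highest in siACO1.

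The knockdowns were then compared directly. These contrasts leave the controls out, but the control libraries still enter the filter, the scaling and the estimate of the spread. Of the 10 enzymes 4 differed between siSLC25A1 and siACLY (2 higher and 2 lower in siSLC25A1, where 33.8% of all tested genes were called, 17.5% higher and 16.3% lower), 8 between siSLC25A1 and siACO1 (42.1%) and 8 between siACLY and siACO1 (42.1%). In each of the last 2 comparisons 6 enzymes were lower than in siACO1 (20.3% and 20.7% of all genes were) and 2, CPT2 and ACADS, were higher (21.8% and 21.4%). Between siACLY and siACO1 the call of CPT1C (-0.41, adjusted p 0.0295) was lost in 6 of 13 alternatives, among them siACLY replicate 2, siACLY replicate 3, siACO1 replicate 1 and siACO1 replicate 2 left out (adjusted p up to 0.111). CPT1A was 75.0% of its siACO1 level in siSLC25A1 (log2 -0.41, adjusted p 9.30e-07) and 69.0% in siACLY (-0.53, adjusted p 1.07e-08). The fall of CPT1A in siSLC25A1 and in siACLY was not shown to differ in size (0.12, interval 0.00 to 0.24, adjusted p 0.114), although the difference passed the test without siSLC25A1 replicate 2 or siACLY replicate 3. ACADVL differed between all 3 pairs, siACLY being lowest and siACO1 highest (-0.49, adjusted p 1.19e-10). The summed level of the 10 enzymes was 1315 to 1334 CPM in siControl and 1230 to 1282 in siSLC25A1. It was 1237 to 1254 in siACLY and 1375 to 1482 in siACO1. No knockdown overlapped with the controls, and siSLC25A1 and siACLY overlapped with each other. ACADVL, HADHA and ECHS1 make up most of this sum, which is not scaled by gene length and does not stand for a shift of all 10. Its mean was 1324 CPM in siControl and 1422 in siACO1, while ACADVL alone went from 341 to 448. In siSLC25A1 the mean sum was 1256 CPM, while ECHS1 alone went from 256 to 191.

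Around the 10 enzymes, 4 lists of related genes were described by counts and medians. Of 21 other genes of mitochondrial oxidation, 20 were tested. In siSLC25A1 1 rose and 4 fell (median log2 fold change -0.05, and 3 called without siSLC25A1 replicate 1). In siACLY 2 rose and 6 fell (-0.03, or 0.02 when scaled by library totals), and in siACO1 6 rose and 4 fell (0.08). Without siACO1 replicate 3, 4 rose and 4 fell there and the median was -0.01. ECI2, an enoyl-CoA isomerase for unsaturated chains, fell in siSLC25A1 from 53.9 ± 1.01 to 30.1 ± 2.34 CPM (-0.84, SE 0.06, adjusted p 8.78e-12) and rose in siACO1 (0.24, adjusted p 0.000893). It was called lower in siACLY (-0.15, adjusted p 0.0411), a call lost in 8 of 13 alternatives. Of its exon bases 29.8% overlap other genes, so its count is uncertain. SLC25A20, the carrier that exchanges acylcarnitine across the inner membrane, fell in siSLC25A1 from 9.30 ± 0.285 to 6.51 ± 0.601 CPM (-0.51, adjusted p 0.00141) and did not pass the test elsewhere. SLC22A5, the plasma membrane carnitine transporter, fell in siSLC25A1 (-0.36, adjusted p 0.00108), in siACO1 (-0.57, adjusted p 9.77e-07) and, with a call lost in 7 alternatives, in siACLY (-0.20, adjusted p 0.0402). ACOT13, a thioesterase, rose in siACO1 (0.56, adjusted p 6.76e-07). ACADL, the long-chain dehydrogenase, was listed at 0 in all libraries.

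Of 16 peroxisomal genes, 12 were tested; 1 fell in siSLC25A1, 4 rose and 1 fell in siACLY, and 4 rose and 4 fell in siACO1, with medians of -0.02, 0.10 and -0.05. In siACO1 5 were called without siControl replicate 3 or siACO1 replicate 2, and 10 (4 higher, 6 lower, median -0.10) without siACO1 replicate 3. CROT, which makes medium-chain acylcarnitines for export to mitochondria, rose in siACLY from 5.66 ± 0.469 to 8.97 ± 0.865 CPM (0.66, SE 0.12, adjusted p 6.66e-05). It was also called higher in siACO1 (0.34, adjusted p 0.0309), a call lost in 5 of 13 alternatives. The acyl-CoA oxidases ACOX3 (-0.48, adjusted p 3.08e-05) and ACOX2 (-0.40, adjusted p 0.0175, lost without siControl replicate 2 or siACO1 replicate 2) fell in siACO1, and ACOX2 also in siACLY (-0.48, adjusted p 0.00517).

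A mixed list held 23 regulators of fatty acid oxidation and target genes of the PPARs, which are nuclear receptors that bind fatty acids. Of these 23 genes 19 were tested. In siSLC25A1 3 rose and 3 fell, in siACLY 3 rose and 6 fell, and in siACO1 3 rose and 10 fell, with medians of -0.12, -0.15 and -0.34. The count in siSLC25A1 rests on small changes: it was 2 without any 1 of the siControl libraries and 3 without siSLC25A1 replicate 1 or 2. In siACO1 3 rose and 9 fell without siACO1 replicate 3 (median -0.37). PPARG was at 11.6 ± 0.735 CPM in siControl, at 4.82 ± 0.709 in siACLY (-1.29, SE 0.12, adjusted p 9.28e-10) and at 4.72 ± 0.578 in siACO1 (-1.30, SE 0.12, adjusted p 7.72e-10). ANGPTL4, a secreted lipase inhibitor and PPAR target, rose in siSLC25A1 (0.31, adjusted p 0.000456) and fell in siACLY (-0.35, adjusted p 4.87e-05) and siACO1 (-1.09, adjusted p 1.32e-13). FABP5, a fatty acid binding protein with 20.8% of its 31-base stretches in other genes and therefore uncertain, fell in siACO1 (-0.78, adjusted p 1.29e-06) and was called higher in siACLY (0.25, adjusted p 0.0458). The call in siACLY was lost in 7 of 13 alternatives, among them siControl replicate 2, siControl replicate 3 and each siACLY library left out (0.14 to 0.28). ACACA, the acetyl-CoA carboxylase that makes malonyl-CoA, had 38 to 121 counts per library; it fell in siACO1 (-0.66, adjusted p 0.0195), a call lost without siControl replicate 2, siACO1 replicate 1 or siACO1 replicate 3 (-0.59, -0.59 and -0.40). Its siACO1 libraries were at 1.73, 2.89 and 1.22 CPM, and without siACO1 replicate 2 the fold change was -1.08. How reads that match several gene models were counted is not given in the sources used here, so the low count of ACACA may not stand for its RNA level. Of the 7 ketone body genes 5 were tested; 1 rose in siSLC25A1, 2 rose in siACLY, and 1 rose and 1 fell in siACO1 (medians 0.09, 0.31 and -0.00). OXCT1, which activates ketone bodies for use, rose in all 3 knockdowns, most in siACLY, from 27.2 ± 1.40 to 58.8 ± 1.48 CPM (1.11, SE 0.06, adjusted p 2.89e-15; 0.36 in siSLC25A1 and 0.49 in siACO1).

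**Figure D5:**
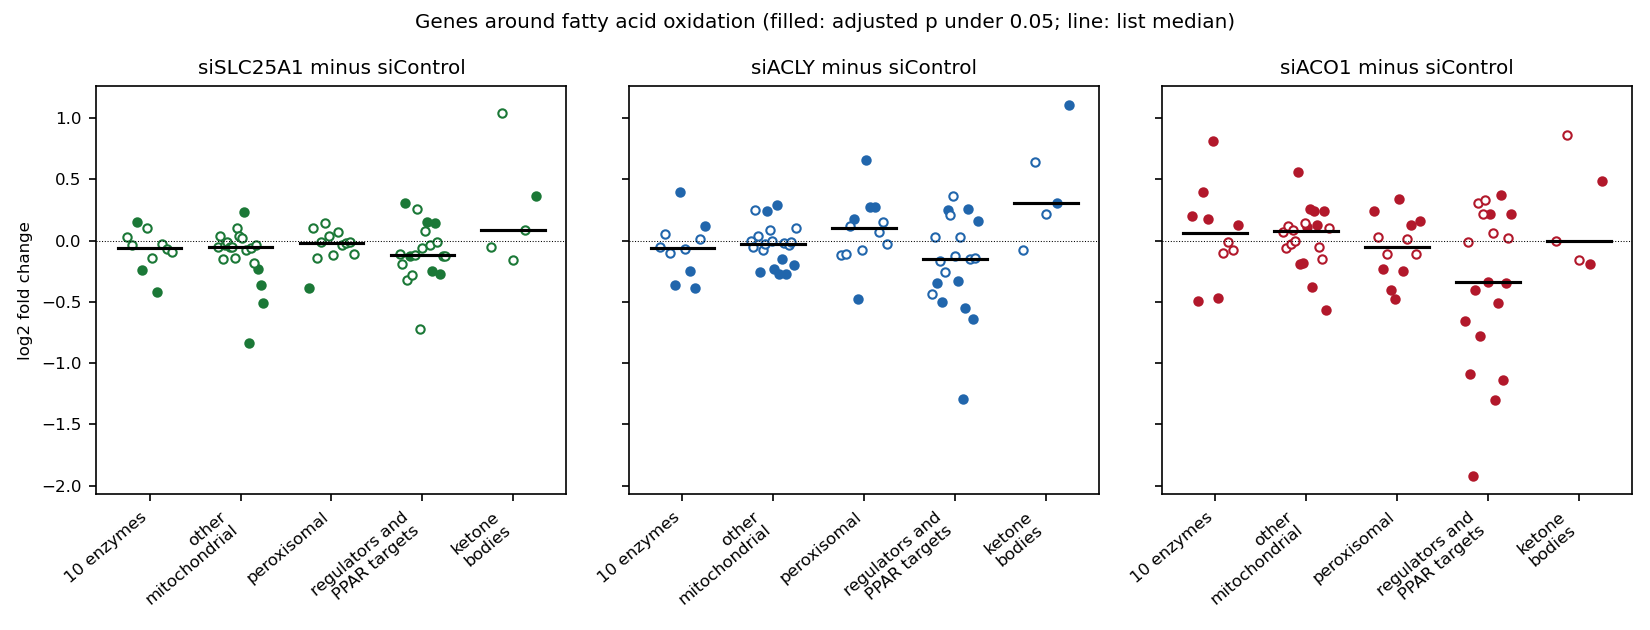
Log2 fold change of each tested gene of the 10 enzymes and the 4 related lists in each knockdown against siControl; filled points have an adjusted p under 0.05 in edgeR and the line is the median of the list. The median of the regulators and PPAR targets lies at -0.34 in siACO1, and the highest filled point in siACLY is OXCT1 (1.11). The lowest filled point in siACO1 is CREB3L3 (-1.92), a gene under 1 CPM in both groups.

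The genes most like CPT1A over the 12 libraries were sought among the 9967 genes averaging 5 CPM or more, by the root mean square difference of log2 CPM after centring each gene on its siControl mean. The 5 nearest were NMT2 (0.0639), ABTB2 (0.0748), LDB1 (0.0804), HDAC1 (0.0808) and PCYOX1 (0.0827). Being chosen for likeness over these libraries, they share the pattern of CPT1A by construction, and their values are a description: log2 fold changes of -0.24 to -0.18 in siSLC25A1, -0.41 to -0.28 in siACLY and 0.12 to 0.28 in siACO1. By the same measure HADHB was at rank 2192 in the order of likeness to HADHA, and HADHA at rank 1120 in that to HADHB (difference 0.123).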

How the data were processed

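The authors deposited 1 table of raw read counts per gene for the 12 libraries, per the file headers. The submitters' processing notes name CASAVA, FastQC, Trim Galore, STAR 2.7.0e, DESeq2 and the builds GRCh38 and GRCm39 without their roles; the counting tool, annotation and strand setting are not given in the sources used here. Per the labels' protocols, poly(A) RNA was fragmented and primed with random hexamers. Symbols came from a table of gene names (62700 of 70116 identifiers matched); gene positions were read from GENCODE release 29 (GRCh38), and the counts may rest on another annotation.

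Genes were filtered with filterByExpr, scaled by TMM and fitted with edgeR 4.0.16 (R 4.3.3; robust quasi-likelihood, all 12 libraries, 4 groups, no block, 8 residual degrees of freedom, biological coefficient of variation 4.89%), giving 3 comparisons with siControl and 3 between knockdowns. Intervals are 95% intervals from that fit. DESeq2 1.42.0 was an alternative, with median-of-ratios size factors, library totals, 2 other filters, fits of 2 groups, a replicate block and each library left out. The scripts were tested on simulated counts. The count of a gene is named as uncertain if other genes hold 20% or more of its exon bases or 31-base stretches.

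The 10 enzymes and the 4 lists were chosen with earlier results of these data known. The genes named are the 10 enzymes, the 3 targets, the 4 called genes of each list with the largest change against siControl and at least 1 CPM in the higher group (only 2 ketone body genes were called), and the 5 nearest to CPT1A; other names were chosen after their values were seen. Some genes that this rule selects are not reported here.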

Additional observations from a re-analysis of the deposited data

How the results depend on the processing

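Over 13 alternatives for each of the 60 fold changes of the 10 enzymes, 739 of 780 values kept their side of the threshold (some uncalled values near 0 changed sign), 29 lost the call, 12 gained one and 0 called values changed direction. The number of enzymes called in siACLY against siControl was 5, and 3 with DESeq2 and without a filter, where CPT1C and HADHB were lost; it was 3 to 5 with 1 library left out. With 1 library left out the other counts of enzymes were 2 to 3 in siSLC25A1 and 5 to 8 in siACO1 against siControl, and 4 to 5, 8 to 8 and 7 to 9 between knockdowns. Over all tested genes the counts stayed within 1.5 times those reported. Same-numbered libraries showed no strong shared deviation (correlations of -0.0306 to 0.0626). Such values cannot tell whether they were handled together, because counting noise also lowers them, and the labels do not say. The replicate block left the counts of enzymes at 3, 5, 7, 4, 8 and 8. Among the lists, called regulators and PPAR targets in siSLC25A1 went from 6 to 3 without a filter, called peroxisomal genes there from 1 to 2 in a fit of the 2 groups alone, and called ketone body genes in siACO1 from 2 to 1 with library totals, without a filter, and without siControl replicate 1, siControl replicate 3 or siACO1 replicate 1; the cause was not tested. Of the 10 enzymes depth limits CPT1C most, and in the lists it limits PDK4, CREB3L3, PRKAA2, BDH1, FABP3 and CPT1B, each with at most 46 counts in a library. The count of CPT1B is also uncertain, because 66.4% of its exon bases overlap another gene. AMACR, DECR2, ECH1, RXRB and SLC16A1 had at most 10 counts and were not tested; as for ACACA, these counts may not stand for their RNA level.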

Other observations

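From the list of regulators 4 more genes, picked after their values were seen because they were called in every knockdown, are described here; most of their calls in siSLC25A1 were fragile. ESRRA, the estrogen-related receptor that drives mitochondrial genes, was at 112 ± 1.23 CPM (SD, n = 3) in siControl, at 102 ± 3.91 in siSLC25A1, at 79.6 ± 4.19 in siACLY and at 85.1 ± 2.62 in siACO1. These were log2 fold changes of -0.13, -0.50 and -0.40 (adjusted p 0.0388, 9.80e-10 and 4.24e-08 in edgeR). PPARGC1B, a coactivator of that receptor, fell by 0.25, 0.55 and 0.51 on the log2 scale in the 3 knockdowns in the same order, and RXRA, the partner of the PPARs, fell by 0.27, 0.64 and 0.35. PRKAA1, a catalytic subunit of the AMP-activated kinase, rose by 0.14, 0.26 and 0.37. In siSLC25A1 the calls of ESRRA and PRKAA1 were lost without siControl replicate 1, 2 or 3 or siSLC25A1 replicate 1 or 2 (-0.14 to -0.11 and 0.12 to 0.14), and that of PPARGC1B without siControl replicate 1, 2 or 3 or siSLC25A1 replicate 1 or 3 (-0.27 to -0.22). In siACLY and siACO1 the calls of these 4 genes held under each of the 13 alternatives. Other regulators of the list did not follow this pattern. PPARA fell in siACLY (-0.33, adjusted p 0.00324) and was called higher in siACO1 (0.22, adjusted p 0.0368), a call lost without siControl replicate 1 or 2 or siACO1 replicate 1 or 2 (0.16 to 0.24) and in DESeq2. PPARD was called in siSLC25A1 (0.15, adjusted p 0.0284) and not against siControl in the other knockdowns (0.03 and 0.06), and that call was lost without siControl replicate 1, 2 or 3 or siSLC25A1 replicate 2 or 3 (0.13 to 0.17). SIRT3, a mitochondrial deacetylase, passed the test in none of the 3 comparisons (-0.13, -0.14 and 0.02), although it did in siACLY in a fit of the 2 groups alone. PPARGC1A was listed with at most 2 counts in a library.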
